A study of Rattus norvegicus with 15 samples.

Results

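Klk1 and the kinin system were followed in rat multifidus muscle through 4 genes, Klk1, Bdkrb1, Bdkrb2 and Ace. The members were chosen by gene symbol with the earlier measured drop of Klk1 between the pMT and surgery groups in view, and all 4 were among the 37991 genes of the table. Paired-end RNA sequencing of the multifidus gave 15 libraries, with 2 from the control group, 2 from the surgery group, 4 from the pMT group, 4 from the pMT/VitD group and 3 from the VitD group. Total counts per library ran from 52342134 to 73557878. The study asked whether mitochondria could limit the wasting of back muscle that follows spinal surgery.

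All animals were wild-type male Sprague Dawley rats of 12 weeks. Control rats had no operation. Surgery rats had a left hemilaminectomy with ligation of a lumbar spinal nerve and no later treatment, so that the muscle was injured and in part denervated. Rats of the pMT group were given mitochondria isolated from human blood plasma (pMT) on day 14 after the operation, and tissue was taken on day 28. Each pMT dose held 25 µg in 100 µL per site, which made 50 µg per rat. After the operation the VitD group was given cholecalciferol, 150 µg per site and 300 µg per rat, and the pMT/VitD group was given both agents at these doses. For the groups with VitD the days of injection and collection are not given in the sources used here.

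Tissue kallikrein, the serine protease encoded by Klk1, cuts kininogens to release short kinin peptides. Kinins widen vessels, raise their leakiness and excite pain fibres through the B2 receptor, which is present at rest, and the B1 receptor, which is induced in injured or inflamed tissue. Angiotensin-converting enzyme, encoded by Ace and best known on endothelium, breaks kinins down and also makes angiotensin II.

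Some libraries stood apart from their groups before any gene of this system was considered. Over 3129 abundant genes, the standard deviation of log2 ratios between pMT replicate 4 and the other pMT libraries was 0.365 to 0.550, against 0.178 to 0.314 to pMT/VitD replicates 1 to 3. For pMT/VitD replicate 4 it was 0.371 to 0.479 to its own group and 0.194 to 0.253 to pMT replicates 1 to 3. Each of these libraries was thus nearer to the other group than to its own label. Values of the members in comparisons with these groups are given with and without both replicate 4 libraries.

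Levels are given as CPM, counts relative to the library total after scaling by trimmed mean of M values (TMM). Where genes are compared with each other they are given as TPM, which also allows for gene length. Klk1 (gene 24523) had 0.820 and 0.900 CPM in the control libraries and 9.61 and 9.72 CPM in the surgery libraries. The VitD libraries held 21.2, 9.28 and 5.77 CPM. The pMT libraries held 0.944, 0.883, 0.662 and 1.35 CPM, and the pMT/VitD libraries 1.30, 1.13, 0.817 and 0.662 CPM. All 5 surgery and VitD libraries were high and the other 10 low, with no overlap between these sets. Here and below, the share of all genes whose groups do not overlap was not counted, so nothing is read from separation alone. Within the high set the VitD group enclosed the surgery group, and within the low set the control, pMT and pMT/VitD groups overlapped. In raw counts, control held 52 and 54, surgery 744 and 713, and VitD 1809, 638 and 443 Klk1 reads. The pMT libraries held 48 to 73 and the pMT/VitD libraries 34 to 61, so that the low levels rested on few reads. VitD replicate 1 was the highest of all libraries for Klk1. Fewer cells of a type and less RNA per cell cannot be told apart in such bulk tissue.

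**Figure D1:**
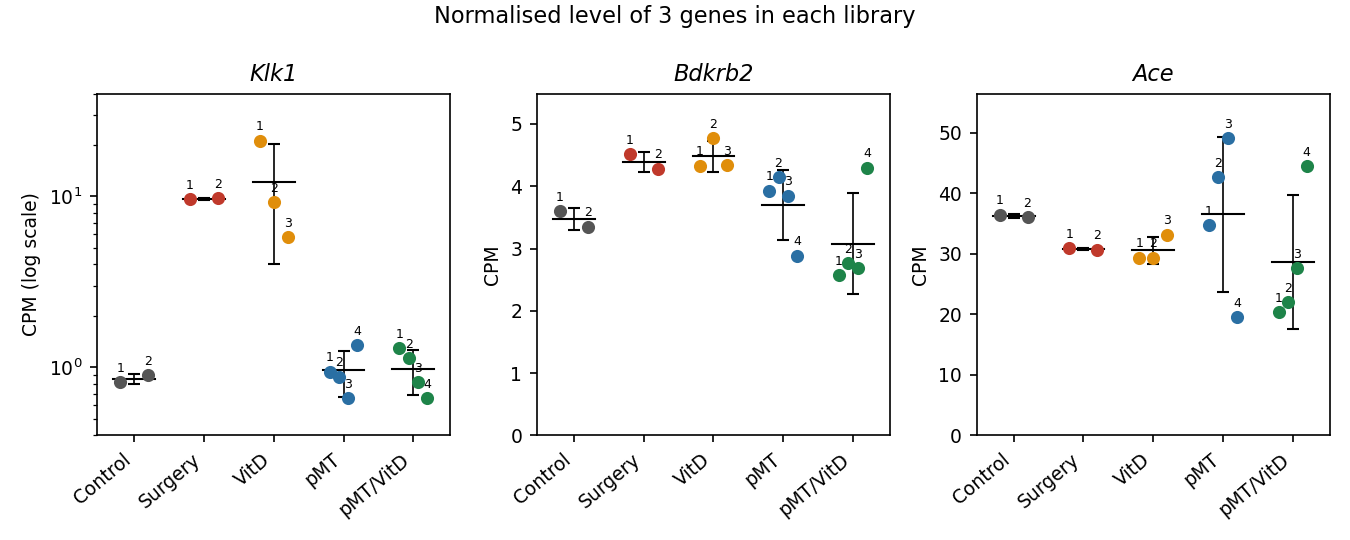
Normalised level (CPM) of Klk1 on a log scale and of Bdkrb2 and Ace on linear scales, by group; each point is 1 library with its replicate number, black bars are the group mean with its standard deviation. Klk1 was between 5.77 and 21.2 CPM in the surgery and VitD libraries and at most 1.35 CPM in the others.

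Between the pMT and surgery groups, the contrast that brought Klk1 into view, the mean was 0.959 ± 0.287 CPM (SD, n = 4) against 9.67 ± 0.0780 CPM (SD, n = 2). The log2 fold change was -3.34 with a standard error of 0.39, and it is a description only. In the same contrast 1.94% of the 17201 genes tested had an adjusted p under 0.05, a share from which nothing is read about Klk1. Between the surgery and control groups, which share the surgery libraries with that contrast, the log2 fold change was 3.49 with a standard error of 0.51, also a description, and 1.55% of genes passed. Without both replicate 4 libraries the pMT minus surgery value was -3.56.

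The VitD libraries were not part of the contrast that brought Klk1 into view, and they allowed tests. The members were still chosen with earlier results of these data known. Klk1 was higher in VitD, at 12.1 ± 8.07 CPM (SD, n = 3), than in control, at 0.860 ± 0.0562 CPM (SD, n = 2). All 3 VitD libraries lay above both control libraries. The log2 fold change was 3.81 with a standard error of 0.50 and a 95% interval of 2.74 to 4.88 (edgeR quasi-likelihood test, adjusted p = 0.00220), where 8.67% of genes passed. The adjusted p was 0.0677 without control replicate 1, 0.0531 without control replicate 2 and 0.0583 with only these groups in the fit, within 1.22e-13 to 0.0677 over all alternatives.

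Klk1 was lower in pMT/VitD, at 0.977 ± 0.289 CPM (SD, n = 4), than in VitD alone. All 4 pMT/VitD libraries lay below all 3 VitD libraries. The log2 fold change was -3.63 with a standard error of 0.38 and a 95% interval of -4.44 to -2.82 (edgeR quasi-likelihood test, adjusted p = 0.000103), where 21.9% of genes passed. It was -3.49 without both replicate 4 libraries and -2.94 without VitD replicate 1, the highest library for Klk1. Over all alternatives the value ran from -4.02 to -2.94 and the adjusted p from 2.07e-18 to 0.00716.

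Between pMT/VitD and control, whose Klk1 levels overlapped, the log2 fold change was 0.18 with a 95% interval of -0.80 to 1.17 (edgeR quasi-likelihood test, adjusted p = 0.947). It was 0.35 without both replicate 4 libraries (edgeR quasi-likelihood test, adjusted p = 0.749, within 0.749 to 1 over all alternatives). Here 0% of genes passed, that is 0 of 17201 by edgeR, with 496 at an unadjusted p under 0.05, 0 called by DESeq2 and 4 by edgeR's exact test. The 3 tested comparisons are not independent, since the first and the third share the control libraries, the first and the second the VitD libraries, and the second and the third the pMT/VitD libraries.

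Klk1 belongs to a family of close copies that lie next to each other in the rat genome, and reads could be split among them. How reads that match several genes were counted is not given in the sources used here, so the Klk1 counts are uncertain to that extent. Of the 21 other Klk genes in the table, 13 had 0 counts in every library and 2 reached 10 counts in any library. Klk1b3 reached 26 and 8 counts in the surgery libraries, 0 in both control libraries and 0 to 10 in the rest. Klk1c3 had 20 and 18 counts in the surgery libraries, 26, 12 and 12 in VitD, 5 and 11 in control and 0 to 9 in the pMT and pMT/VitD libraries. In surgery and VitD these copies thus stayed far below Klk1.

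The B2 receptor gene Bdkrb2 (gene 25245) had 3.597 and 3.35 CPM in control, 4.51 and 4.28 CPM in surgery and 4.33, 4.77 and 4.33 CPM in VitD. The pMT libraries held 3.93, 4.15, 3.85 and 2.88 CPM, and the pMT/VitD libraries 2.57, 2.76, 2.69 and 4.30 CPM. Surgery and VitD were again the high groups, but the steps were small, and pMT/VitD replicate 4 reached into the surgery range while staying below all VitD libraries. The lowest pMT library was replicate 4. The pMT minus surgery log2 fold change was -0.25 with a standard error of 0.20 (-0.16 without both replicate 4 libraries), and the surgery minus control value was 0.34 with a standard error of 0.23, both descriptions.

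Between VitD and control, Bdkrb2 was higher in 3 of 3 VitD libraries but did not pass, with a log2 fold change of 0.37 and a 95% interval of -0.09 to 0.82 (edgeR quasi-likelihood test, adjusted p = 0.2999). Its adjusted p was 0.0510 without both replicate 4 libraries, within 0.0510 to 0.609 over all alternatives, and the value was 0.65 with library size only. Against VitD alone, where 21.9% of genes passed, pMT/VitD passed narrowly, with all 4 pMT/VitD libraries below the VitD libraries. There the log2 fold change was -0.54 with a standard error of 0.18 and an interval of -0.92 to -0.16 (edgeR quasi-likelihood test, adjusted p = 0.0429). Over all alternatives the adjusted p ran from 0.000532, without both replicate 4 libraries and with a log2 fold change of -0.75, to 0.126, without VitD replicate 2. It exceeded 0.05 when any library of either group but pMT/VitD replicate 4 was left out, at 0.106, 0.105 and 0.0946 for pMT/VitD replicates 1 to 3 and 0.0906, 0.126 and 0.0646 for VitD replicates 1 to 3. The call was also lost with the exact test (adjusted p = 0.0960), only the 2 groups in the fit (0.111), the replicate block (0.0760) and a filter on any count (0.0509). Against control the pMT/VitD value was -0.17 with an interval of -0.61 to 0.26 (edgeR quasi-likelihood test, adjusted p = 0.906). It was -0.36 without pMT/VitD replicate 4 and -0.36 without both replicate 4 libraries (edgeR quasi-likelihood test, adjusted p = 0.370 and 0.155, within 0.155 to 1 over all alternatives).

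The inducible B1 receptor gene Bdkrb1 (gene 81509) was almost absent. It had 0 counts in both control libraries, 0 and 6 in surgery, 6, 6 and 4 in VitD, 3, 5, 7 and 0 in pMT, and 0, 0, 0 and 8 in pMT/VitD. A count of 0 allows up to 3 counts, or 0.0388 to 0.0648 CPM in the libraries at 0, for counting error only. Bdkrb1 did not pass the filter on low counts, so that 3 of the 4 members were tested and its differences between groups were not. Ace was thus the remaining member with a level to compare.

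Ace (gene 24310) had 36.5 and 36.0 CPM in control, 30.9 and 30.7 CPM in surgery and 29.3, 29.3 and 33.2 CPM in VitD. The pMT libraries held 34.7, 42.7, 49.1 and 19.6 CPM, and the pMT/VitD libraries 20.3, 22.0, 27.6 and 44.5 CPM. Control, surgery and VitD were tight, whereas each group given pMT spanned more than the range of all the others. In pMT the low library was replicate 4, and in pMT/VitD the high library was replicate 4. The pMT minus surgery log2 fold change was 0.25 with a standard error of 0.32. It was 0.44 without both replicate 4 libraries, 0.45 without pMT replicate 4 alone, 0.16 without pMT replicate 2 and 0.07 without pMT replicate 3. The surgery minus control value was -0.24 with a standard error of 0.36, and both values are descriptions.

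No tested comparison of Ace passed. The log2 fold change was -0.24 between VitD and control, with an interval of -0.94 to 0.46 (edgeR quasi-likelihood test, adjusted p = 0.683), and lower in 3 of 3 VitD libraries. For pMT/VitD against VitD it was -0.10, with an interval of -0.69 to 0.49 (edgeR quasi-likelihood test, adjusted p = 0.832), and 3 of the 4 pMT/VitD libraries lay below all VitD libraries. Without both replicate 4 libraries this value was -0.40 (edgeR quasi-likelihood test, adjusted p = 0.0308). Without pMT/VitD replicate 4 alone it was also -0.40 but did not pass (edgeR quasi-likelihood test, adjusted p = 0.224). The value turned to 0.03 without pMT/VitD replicate 1 and to 0.01 without pMT/VitD replicate 2. Over all alternatives the adjusted p ran from 0.0308 to 0.986. Against control the pMT/VitD value was -0.34, with an interval of -1.004 to 0.32 (edgeR quasi-likelihood test, adjusted p = 0.906). It was -0.62 without pMT/VitD replicate 4 and -0.62 without both replicate 4 libraries (edgeR quasi-likelihood test, adjusted p = 0.369 and 0.0760, within 0.0760 to 1 over all alternatives).

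Within the groups given pMT, a trend of level on gene length ran along with the Ace levels. Across genes, the rank correlation of a library's deviation from the mean with relative gene length was -0.50 in pMT replicate 4 and -0.58, -0.53 and -0.27 in pMT/VitD replicates 1 to 3, the libraries with the lowest Ace. It was 0.54 and 0.65 in pMT replicates 2 and 3 and 0.28 in pMT/VitD replicate 4, the libraries with the highest Ace. Outside these groups the order did not follow, since VitD replicates 2 and 3, at 0.24 and 0.42, had less Ace than control replicate 1, at 0.11. Genes are not independent replicates in these correlations. With the trend removed, Ace was 34.5, 40.7, 46.1 and 20.6 CPM in pMT and 21.7, 23.6, 28.6 and 43.4 CPM in pMT/VitD, so the same libraries stayed low and high. Genes for the 13 proteins made from mitochondrial DNA took 22.6% of counts in pMT replicate 4 and 11.1% to 12.9% in the other pMT libraries, and 11.5% in pMT/VitD replicate 4 and 13.5% to 17.7% in the other pMT/VitD libraries. The part of the mitochondrial share in the Ace levels was not tested.

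Compared per length, Ace was the most abundant of the members in control, at 13.1 ± 0.0920 TPM (SD, n = 2), ahead of Klk1 at 1.34 ± 0.0891 TPM and Bdkrb2 at 1.09 ± 0.0587 TPM. In surgery Klk1 reached 19.0 ± 0.168 TPM (SD, n = 2), above Ace at 13.8 ± 0.0738 TPM. In VitD the Klk1 libraries held 42.5, 18.1 and 11.2 TPM around Ace at 13.5, 13.0 and 14.7 TPM, so that the 2 genes overlapped. In every library Bdkrb1 was under 0.1 TPM, the lowest member.

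A wider list of 56 genes around the kinins was also followed, of which 54 were in the table by symbol and 41 passed the filter. In the RNA of this muscle, substrate and contact genes were nearly silent, which gives no measure of their proteins in the tissue. The kininogen genes in the table reached at most 2 counts, where the symbol Kng1 of the table is the gene that RefSeq GRCr8 names Kng2 and Kng1l1 is the gene it names Kng1. F12, which starts the contact pathway, and F11, which it activates, had 0 counts in every library, as had the kallikrein inhibitor genes Serpina4 and Serpina5, and plasma kallikrein (Klkb1) reached 9 counts. What remained of these roles was Prcp, a lysosomal peptidase that can activate plasma prekallikrein, and Serping1, the inhibitor of complement C1 that also blocks plasma kallikrein. Serping1 was abundant, at 33.0 to 102 TPM.

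Among peptidases that can cleave kinins, Xpnpep1 had the highest mean over the 15 libraries, at 17.6 to 32.9 TPM, followed by Ece1, the endothelin-converting enzyme, at 12.6 to 35.3 TPM. In pMT/VitD replicate 4 and the first 3 pMT libraries Ece1 was the higher of these. Of the signalling genes behind the receptors, the inhibitory G protein subunit gene Gnai2 led in every library with 59.6 to 130 TPM. The protein kinase C gene Prkca had the next highest mean, at 4.71 to 14.6 TPM, but other genes of this role exceeded it in VitD replicate 1 and pMT replicate 4. Of the renin-angiotensin partners of Ace, the renin receptor gene Atp6ap2 had the highest mean over the 15 libraries with 5.75 to 13.8 TPM, ahead of the angiotensin receptor gene Agtr1a with 4.89 to 12.6 TPM. This order did not hold in every library, and in both control libraries, pMT replicate 1 and pMT/VitD replicate 3 Enpep was above both genes.

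Between VitD and control, 3 of the 41 list genes passed, 1 higher and 2 lower, or 7.32% beside 8.67% of all genes. The median log2 fold change of the list was -0.04 beside -0.01 over all genes. Prcp was higher, with 5.24 and 5.45 CPM in control and 10.6, 8.64 and 8.17 CPM in VitD, a log2 fold change of 0.78 (edgeR quasi-likelihood test, adjusted p = 0.0172). All 3 VitD libraries were above both control libraries. The neprilysin gene Mme, a kinin-cleaving enzyme, was lower, with 10.2 and 9.98 CPM in control and 4.78, 6.48 and 7.73 CPM in VitD, a log2 fold change of -0.67 (edgeR quasi-likelihood test, adjusted p = 0.0336). Enpep, the aminopeptidase that trims angiotensin II, was lower too, with 28.1 and 30.4 CPM in control and 12.2, 16.8 and 20.5 CPM in VitD, a log2 fold change of -0.83 (edgeR quasi-likelihood test, adjusted p = 0.0492). Neither gene's groups overlapped. The count of 3 became 0 without control replicate 1 or control replicate 2 and 1 without VitD replicate 1 or VitD replicate 2.

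Between pMT/VitD and VitD, 14 of the 41 list genes passed, 3 higher and 11 lower, or 34.1% beside 21.9% of all genes. The list median was -0.13 beside 0.00 over all genes. The count was 6 without VitD replicate 1, 8 without VitD replicate 2, 9 without pMT/VitD replicate 1 and 8 without pMT/VitD replicate 2. Prcp was lower, at 5.32, 4.56, 5.68 and 5.66 CPM in pMT/VitD, a log2 fold change of -0.79 (edgeR quasi-likelihood test, adjusted p = 0.00209), with 4 of 4 libraries below VitD. By role, 5 of the 21 signalling genes were lower and 1 higher, and 3 of the 7 renin-angiotensin partners were lower and 1 higher. Of the 11 peptidase genes 1 was higher and 1 lower.

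Among list genes that passed, the largest falls were in Ptges, Dpp4 and Plcb1. Ptges, which makes prostaglandin E2 downstream of kinin receptors, had 4.32, 2.95 and 2.98 CPM in VitD and 1.02, 0.983, 1.23 and 1.85 CPM in pMT/VitD, a log2 fold change of -1.43 (edgeR quasi-likelihood test, adjusted p = 0.00193). All 4 pMT/VitD libraries lay below VitD. Dpp4, a dipeptidyl peptidase that removes pairs of amino acids from the start of peptides, had 10.7, 7.68 and 5.82 CPM in VitD and 2.23, 1.52, 4.75 and 5.06 CPM in pMT/VitD, a log2 fold change of -1.25 (edgeR quasi-likelihood test, adjusted p = 0.0187). Plcb1, a phospholipase that acts behind the receptors, had 2.68, 2.26 and 1.91 CPM in VitD and 0.951, 1.001, 0.774 and 1.23 CPM in pMT/VitD, a log2 fold change of -1.20 (edgeR quasi-likelihood test, adjusted p = 0.00560). In both genes the pMT/VitD libraries were below every VitD library.

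The genes that passed as higher were Nos1, Agt and Thop1. Nos1, neuronal nitric oxide synthase, had 0.608, 1.32 and 1.64 CPM in VitD and 1.27, 3.32, 3.83 and 8.64 CPM in pMT/VitD, a log2 fold change of 1.85 (edgeR quasi-likelihood test, adjusted p = 0.0479). Its groups overlapped, and pMT/VitD replicate 4 was the highest library. Without both replicate 4 libraries the value was 1.24 and Nos1 no longer passed (edgeR quasi-likelihood test, adjusted p = 0.0563), the only call of the 14 that was lost. Agt, the angiotensinogen gene, had 4.73, 4.002 and 2.72 CPM in VitD and 6.33, 6.82, 5.89 and 6.17 CPM in pMT/VitD, a log2 fold change of 0.72 (edgeR quasi-likelihood test, adjusted p = 0.00829). Thop1, a peptidase that can cleave bradykinin, had 19.7, 20.4 and 20.3 CPM in VitD and 22.8, 24.5, 26.0 and 25.6 CPM in pMT/VitD, a log2 fold change of 0.29 (edgeR quasi-likelihood test, adjusted p = 0.0194). For Agt and Thop1 all 4 pMT/VitD libraries lay above VitD.

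In the other comparisons 0 of the 41 list genes passed by edgeR. Of all 17201 genes 1.94% passed between pMT and surgery, 1.55% between surgery and control and 0% between pMT/VitD and control. Beside such low shares nothing is read about the list. Between pMT and surgery 8 list genes had an unadjusted p under 0.05, DESeq2 called 2 and edgeR's exact test 2. Over all genes these counts were 2455, 747 and 1180. The list median was 0.05 beside 0.02 over all genes. Between surgery and control 6 list genes had an unadjusted p under 0.05, DESeq2 called 1 and edgeR's exact test 19. Over all genes these counts were 2923, 1001 and 5923, so that the exact test called many genes outside the list too. The medians were -0.03 and -0.01. Between pMT/VitD and control 0 had an unadjusted p under 0.05 and neither other tool called any, and the medians were -0.16 and -0.01. There the counts over all genes were 496, 0 and 4.

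The tissue label fitted its markers, since the 6 skeletal muscle markers summed to 126395 to 162994 TPM, led by Acta1. Marker sums are in TPM, which lacks the TMM scaling of the fits, so differences in sums between libraries can depart from fitted changes. Between surgery and control all 6 skeletal muscle markers had negative log2 fold changes, with a median of -0.25. Their median sum was nevertheless 149028 TPM in control and 157674 TPM in surgery. Other cell types were present beside the fibres, and several marker lists moved along with Klk1. Of 6 markers of denervated fibres, led by Myog, 6 passed as higher between VitD and control, beside 8.67% of all genes, and 6 as lower between pMT/VitD and VitD, beside 21.9%. Their summed level was 25.7 and 23.6 TPM in control, 78.4 and 76.2 TPM in surgery and 111, 76.5 and 66.7 TPM in VitD. In pMT it was 32.4, 34.3, 33.4 and 28.2 TPM, and in pMT/VitD 27.4, 24.4, 22.4 and 27.1 TPM. As for Klk1, the surgery and VitD libraries were the high ones, with VitD replicate 1 at the top, and they did not overlap the other 10.

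Of 5 macrophage markers, led by Csf1r, 2 passed as higher between VitD and control (8.67% of all genes passed) and 5 as lower between pMT/VitD and VitD (21.9%). They summed to 37.7 and 36.4 TPM in control, 74.7 and 75.4 TPM in surgery, 89.3, 77.2 and 71.4 TPM in VitD, 39.4, 47.1, 54.5 and 20.3 TPM in pMT, and 19.3, 19.2, 27.2 and 45.6 TPM in pMT/VitD. Of 4 fibroblast markers, led by Dcn, 2 passed as higher and 3 as lower in those comparisons, beside the same shares of 8.67% and 21.9%. They summed to 644 and 699 TPM in control, 958 and 988 TPM in surgery, 1357, 1009 and 950 TPM in VitD, 835, 848, 843 and 522 TPM in pMT, and 419, 446, 511 and 740 TPM in pMT/VitD. In summed TPM, surgery and VitD were above every other library for both cell types. On that scale pMT replicate 4 lay lowest in its group and pMT/VitD replicate 4 highest in its own.

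Klk1 is best known from gland epithelium, whose 5 markers, led by Krt8, stayed near 0. They summed to 0.362 and 0.635 TPM in control, 1.43 and 1.93 TPM in surgery, 2.95, 1.27 and 0.941 TPM in VitD, 0.630, 0.628, 0.910 and 0.606 TPM in pMT, and 0.652, 0.488, 0.719 and 0.727 TPM in pMT/VitD. The surgery and VitD libraries were again the higher ones, although all were low, and 1 of the 5 passed as higher between VitD and control and 1 of 5 as lower between pMT/VitD and VitD, beside 8.67% and 21.9% of all genes. The part of these cell types in the Klk1 levels was not tested.

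Endothelial markers bear on Ace and Bdkrb2. Of 6, led by Pecam1, 1 passed as higher between VitD and control, where 8.67% of all genes passed, and 2 as lower between pMT/VitD and VitD, where 21.9% did. Their sum was 106 and 107 TPM in control, 156 and 155 TPM in surgery, 171, 157 and 147 TPM in VitD, 134, 160, 172 and 82.7 TPM in pMT, and 83.1, 91.4, 83.1 and 131 TPM in pMT/VitD. By the fits their median log2 fold change was 0.20 between surgery and control, 0.21 between VitD and control and -0.27 between pMT/VitD and VitD. By summed TPM, libraries low or high for Ace within the groups given pMT were in the main also low or high for these markers. However, pMT/VitD replicates 1 and 3 shared the lowest sum of their group. Smooth muscle and pericyte markers, led by Tagln, summed to 201 and 189 TPM in control, 280 and 274 TPM in surgery, 372, 273 and 242 TPM in VitD, 220, 270, 321 and 140 TPM in pMT, and 144, 146, 166 and 223 TPM in pMT/VitD. In summed TPM their order within each group given pMT was that of Ace. The part of these cell types in the Ace and Bdkrb2 levels was not tested.

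For the remaining lists, between VitD and control 0 of 6 skeletal muscle markers passed by edgeR, with 2 at an unadjusted p under 0.05, 1 called by DESeq2 and 0 by the exact test. For smooth muscle and pericyte it was 0 of 6, with 3 at an unadjusted p under 0.05, 2 by DESeq2 and 0 by the exact test. For neutrophils it was 0 of 4 by edgeR, with 2 at an unadjusted p under 0.05, 0 by DESeq2 and 2 by the exact test. Over all genes in this comparison 4432 had an unadjusted p under 0.05, DESeq2 called 2471 and the exact test 2142. Of 5 mast cell markers tested, 2 passed as lower, where 8.67% of all genes passed. With pMT/VitD set against VitD, where 21.9% of all genes passed, 2 of 6 skeletal muscle markers were higher and 1 of 6 smooth muscle and pericyte markers lower. Of 4 neutrophil and 5 mast cell markers tested, 1 of each list was higher and 1 lower. The most abundant genes were S100a9 for neutrophils and Cma1 for mast cells. The mast cell marker Mcpt1 had 0 in every library.

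Likeness was measured as the root mean square difference between log2 CPM values over the 15 libraries, each gene centred on its own mean. Among the 11398 genes whose mean log2 CPM was 1 or more, the nearest to Klk1 was Actc1, the cardiac actin gene that is also used by developing muscle, at 0.324. Tnnt2, the cardiac troponin T gene, followed at 0.458, RGD1564861 at 0.475, the protease inhibitor gene Serpina3n at 0.504 and the cell cycle inhibitor gene Cdkn1a at 0.506. All 5 were high in surgery and VitD, which follows from how they were picked, since Klk1 was high there. Actc1 had group means of 18.1 CPM in control, 182 in surgery, 239 in VitD, 22.6 in pMT and 24.6 in pMT/VitD. By Pearson correlation in place of this measure, 2 of the 5 nearest genes, Actc1 and Cdkn1a, were the same.

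**Figure D2:**
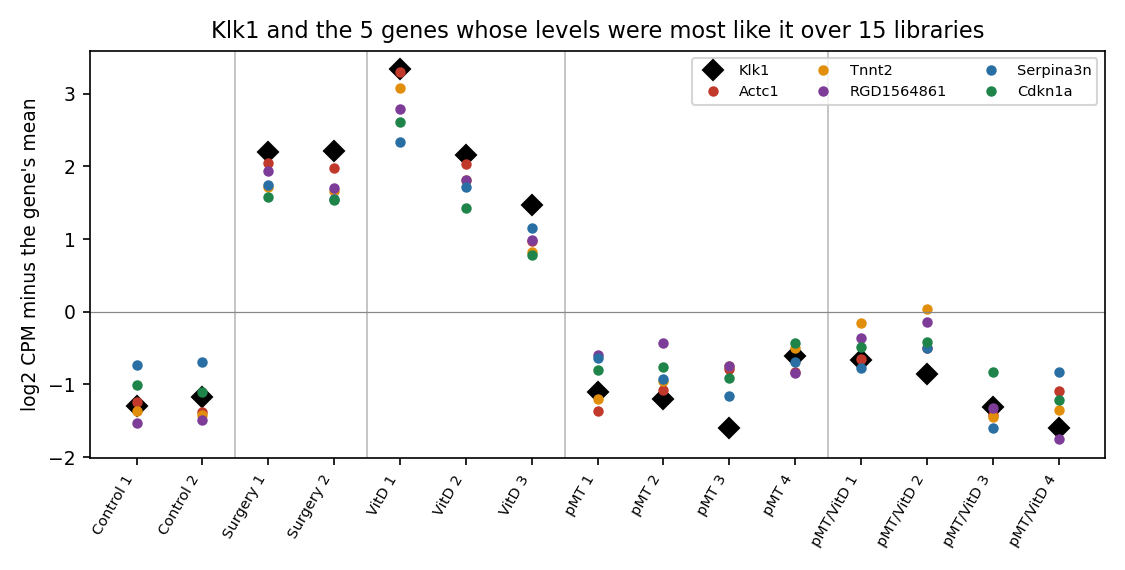
Log2 CPM minus each gene's own mean over 15 libraries, for Klk1 (black diamonds) and the 5 genes most like it (circles); grey lines part the groups. All 6 genes were above their mean in the 5 surgery and VitD libraries, and the 5 were picked for likeness to Klk1 over the same libraries.

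The denervation marker nearest to Klk1 was Chrna1, ranked 38 at 0.942, and by Pearson correlation over the 15 libraries it ranked 3 (r = 0.985), ahead of Actc1 at 5. For Bdkrb2 the nearest genes were Tgfbr2 at 0.0702, Ptprj at 0.0987 and Sufu at 0.102. For Ace they were Lamc1 at 0.107, Bmpr1a at 0.107 and Plec at 0.108. By Pearson correlation 2 of the 3 nearest genes were the same for Bdkrb2 and 1 of 3, Plec, for Ace.

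Because Actc1 and Tnnt2 moved with Klk1, the 250 bases before the annotated start of these 3 genes are shown from RefSeq, build GRCr8, written 5′ to 3′ on the strand of the gene. Of Klk1 and its 5 nearest genes, all but RGD1564861 had an entry in that table. Capitals mark each match to CANNTG, the E-box core, which reads the same on both strands. Of 33469 such windows of all genes, 65.5% held at least 1 match. Klk1 held 3 matches, Actc1 0 and Tnnt2 4, and Serpina3n and Cdkn1a, not shown, 1 each, while 11.5% of all windows held at least as many as Klk1. A match is a string of letters only, and nothing is drawn from it about any factor.
Klk1, chr1:103778902-103779151, plus strand: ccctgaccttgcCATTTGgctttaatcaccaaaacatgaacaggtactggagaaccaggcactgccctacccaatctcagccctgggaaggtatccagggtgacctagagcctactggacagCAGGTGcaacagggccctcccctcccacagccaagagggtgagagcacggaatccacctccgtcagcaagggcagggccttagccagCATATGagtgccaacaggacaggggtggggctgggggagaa
Actc1, chr3:121271828-121272077, minus strand: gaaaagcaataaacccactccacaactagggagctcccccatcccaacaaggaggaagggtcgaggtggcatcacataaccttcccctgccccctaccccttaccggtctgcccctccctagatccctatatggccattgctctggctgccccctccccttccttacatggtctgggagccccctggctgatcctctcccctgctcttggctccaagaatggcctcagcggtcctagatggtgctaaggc
Tnnt2, chr13:49818873-49819122, plus strand: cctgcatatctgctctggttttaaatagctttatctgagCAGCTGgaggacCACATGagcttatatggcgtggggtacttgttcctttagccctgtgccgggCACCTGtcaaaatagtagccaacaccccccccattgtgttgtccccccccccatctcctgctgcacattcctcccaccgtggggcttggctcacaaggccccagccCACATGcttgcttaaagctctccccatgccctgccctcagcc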

How the data were processed

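Counts and TPM per gene were deposited by the authors for 15 libraries. Per the submitters' processing notes and the methods, reads were trimmed with Trimmomatic 0.38, aligned to rn6 with HISAT2 2.1.0 and quantified with StringTie 2.1.3b. The handling of strand and of multiply matching reads is not given in the sources used here. The FPKM columns, 15 in number, were not used here. Genes were filtered with filterByExpr, scaled by TMM and fitted on all 15 libraries with edgeR 4.0.16 in R 4.3.3 (quasi-likelihood test, Benjamini-Hochberg adjustment over 17201 genes, threshold 0.05), a pipeline tested on simulated data. DESeq2 1.42.0, the exact test, other scalings and filters, a length correction and left-out libraries were alternatives. The labels do not say that libraries come from separate animals, so p-values measure the spread between libraries. Intervals cover 95%. The members and lists were chosen with earlier results of these data known. Genes were named by rule: the members, Klk genes with at least 10 counts in 1 library, per list role the 2 most abundant, and per comparison up to 3 per direction with the largest change among those passing. Likeness used a prior count of 2. A further planned marker list is not reported here.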

Additional observations from a re-analysis of the deposited data

Results flagged for a closer look

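Among 66 sets of 4 values, the pMT and pMT/VitD levels of the named genes and marker sums, 8 held a library far from the other 3, where chance gives about 1 in 20, or 3.3, for values free to vary. In 2 of the 8 the other libraries were at 0, so that any count stood out and this rate does not apply. Of the 8, 5 were pMT replicate 4 or pMT/VitD replicate 4.

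In pMT/VitD replicate 4, Bdkrb2 was at 4.30 CPM against 2.57 to 2.76 in the others, Atp6ap2 at 8.86 CPM against 6.56 to 6.76, and Bdkrb1 at 0.156 CPM, or 8 counts, against 0. In pMT replicate 4, markers summed to 126395 TPM for skeletal muscle against 145047 to 148740 and to 522 TPM for fibroblasts against 835 to 848. These sums lack TMM scaling, and the scaling factor was 0.857 in pMT replicate 4 and 1.04 to 1.09 in the other pMT libraries. The part of that scale in these sums was not tested.

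The other libraries were pMT/VitD replicate 2, with 9.94 CPM of Agtr1a against 11.8 to 12.0, pMT replicate 3, with 0.910 TPM of summed gland markers against 0.606 to 0.630, and pMT replicate 2, with 0.0256 CPM of Kng1l1, or 2 counts, against 0. The cause was not tested.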

How the results depend on the processing

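The alternatives that altered a call or a sign, a described member value by more than the pooled SD of the log2 CPM of its groups, or a count of calls by over 1.5 times are given here, with ranges for values that were not called. Bdkrb1 gave no value because it was not tested. Groups held 2 to 4 libraries, and Klk1 counts were low outside surgery and VitD. Control held 2 libraries, on which the VitD against control calls leaned.

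Klk1 in surgery against control was 3.75 with library size only, 3.42 without control replicate 1 and 3.56 without control replicate 2. In VitD against control it was 3.84 with only the 2 groups in the fit, 3.74 without control replicate 1 and 3.88 without control replicate 2, and it ran from 3.13 without VitD replicate 1 to 4.14 without VitD replicate 3. In pMT/VitD against control it reversed to -0.00983 with the gene length trend removed and ran up to 0.41.

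Bdkrb2 in surgery against control was 0.61 with library size only. In VitD against control it ran from 0.32 to 0.65. In pMT/VitD against VitD it was -0.59 with the replicate block (adjusted p = 0.0760), -0.55 with any count above 0 as the filter, -0.54 with the exact test and -0.54 with only the 2 groups, and the call was lost in each. Without pMT/VitD replicates 1 to 3 in turn it was -0.46, -0.49 and -0.48, and without VitD replicates 1 to 3 -0.56, -0.49 and -0.56. It was -0.75 without pMT/VitD replicate 4. Against control the pMT/VitD value ran from -0.36 to -0.0765.

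Ace in pMT against surgery ran from 0.0713 to 0.45 with libraries left out in turn and was 0.14 with library size only and 0.12 with the replicate block. In surgery against control it turned to 0.0316 with library size only and was -0.22 with RLE scaling, -0.22 with DESeq2, -0.21 with the exact test, -0.21 with only the 2 groups and -0.21 without both replicate 4 libraries. In VitD against control it reversed to 0.0394 with library size only and ran down to -0.35 (adjusted p = 0.218 to 0.962). In pMT/VitD against VitD it was -0.40 without both replicate 4 libraries and reversed to 0.0346 and 0.00989 without pMT/VitD replicates 1 and 2. Against control the pMT/VitD value ran from -0.62 to -0.21.

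Genes called in pMT against surgery, 334, became 747 with DESeq2, 78 with the replicate block, 1180 with the exact test, 520 with only the 2 groups and 541 without both replicate 4 libraries. They were 27 and 29 without surgery replicates 1 and 2 and 136, 123, 210 and 290 without pMT replicates 1 to 4. In surgery against control, 266 became 997 with library size only, 1001 with DESeq2, 106 with the replicate block, 554 with the length trend removed, 5923 with the exact test, 5289 with only the 2 groups and 716 without both replicate 4 libraries. They were 8 and 8 without control replicates 1 and 2 and 12 and 20 without surgery replicates 1 and 2.

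In VitD against control, 1492 became 2795 with library size only, 2471 with DESeq2, 2359 with the length trend removed, 96 with only the 2 groups and 2589 without both replicate 4 libraries. They were 13 and 29 without control replicates 1 and 2 and 612, 774 and 2396 without VitD replicates 1 to 3. In pMT/VitD against VitD, 3766 became 5758 with library size only, 1816 with only the 2 groups 1855 without VitD replicate 1 and 4561 without pMT/VitD replicate 4. In pMT/VitD against control, 0 by edgeR became 4 with the exact test, 11 without both replicate 4 libraries, 1 without control replicate 2 and 2 without pMT/VitD replicate 4.

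Kinin list genes called in pMT against surgery, 0 by edgeR, became 2 with DESeq2, 1 with the length trend removed, 2 with the exact test, 2 without both replicate 4 libraries and 1 without pMT replicate 4. In surgery against control 0 became 2 with library size only, 1 with DESeq2, 19 with the exact test, 18 with only the 2 groups and 2 without both replicate 4 libraries. In VitD against control 3 became 8 with library size only, 7 with DESeq2, 5 with the length trend removed, 7 with the exact test, 0 with only the 2 groups and 8 without both replicate 4 libraries. They were 0 without either control library and 1 without VitD replicate 1 or 2. In pMT/VitD against VitD 14 became 8 with the replicate block and 5 with only the 2 groups, and 9, 8, 6 and 8 without pMT/VitD replicates 1 and 2 and VitD replicates 1 and 2.

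Across groups, 24 same-number pairs of libraries correlated at -0.499 to 0.169 with a median of 0.0103. For 64 pairs of other numbers it was -0.287 to 0.431 with a median of -0.0043. In groups of 2 libraries the deviations from the mean mirror each other, so these values cannot settle whether replicate numbers mark pairs. Scaling by library size only moved the median log2 fold change of all genes to -0.12 in pMT against surgery, 0.25 in surgery against control, 0.27 in VitD against control and -0.34 in pMT/VitD against VitD. The share of higher calls moved with it from 20.4% to 6.82%, 80.8% to 97.2%, 63.1% to 95.2% and 44.1% to 6.83%, and with DESeq2 to 31.5% in pMT against surgery. With the length trend removed it was 30.1% in pMT against surgery, 68.1% in surgery against control and 54.7% in VitD against control. In pMT/VitD against VitD it was then 52.8%, so that higher calls became the majority. In the list, library size only gave 8 higher and 0 lower in VitD against control and 0 higher and 17 lower in pMT/VitD against VitD.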
